A study of Rattus norvegicus with 20 samples.

Results

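The water and sodium channel genes of collecting duct principal cells, with their receptor and identity factors, were described as a set of 10 genes out of 32545 listed for cyclosporine A and 32883 listed for tacrolimus. The members were picked by symbol, from a list drawn up with earlier results of these data known, and were matched between the tables by Ensembl identifier. They are the water channels Aqp2, Aqp3 and Aqp4, the vasopressin receptor Avpr2, the epithelial sodium channel (ENaC) subunits Scnn1a, Scnn1b and Scnn1g, the sodium pump regulator Fxyd4, and the transcription factors Gata3 and Elf5. All 10 were detected in every library and passed the filter on low values in both tables. Gene expression was measured by bulk RNA sequencing of entire kidneys from adult wild-type male Wistar rats aged 10 to 12 weeks. Agents were delivered for 28 days from osmotic minipumps placed under the skin. Of the 20 libraries, 4 came from rats given saline vehicle, 4 from rats given cyclosporine A, 6 from rats given a vehicle of 25% DMSO and 75% polyethylene glycol (PEG500 in the labels; DMSO/PEG vehicle) and 6 from rats given tacrolimus at a target trough of 3.5 ng/ml. Cyclosporine A and tacrolimus are calcineurin inhibitors used against transplant rejection, and each was compared with its own vehicle. Between the drugs, the effects of drug, vehicle and table cannot be told apart. The labels number the libraries of a group as replicates and name no individual animals, so p-values measure the spread between these libraries.

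Principal cells take up water and sodium at the end of the nephron. Vasopressin binds Avpr2 on their basolateral side, cyclic AMP rises, and Aqp2 is moved to the apical membrane, while Aqp3 and Aqp4 let the water leave on the basolateral side. Aldosterone acts through the mineralocorticoid receptor on ENaC, whose alpha, beta and gamma subunits are encoded by Scnn1a, Scnn1b and Scnn1g, and sodium leaves the cell through the sodium-potassium pump, with which Fxyd4 associates. Gata3 and Elf5 are transcription factors of the collecting duct lineage. In a whole kidney these cells are a minority, and fewer cells of a type and less RNA per cell cannot be told apart.

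Levels are in FPKM, fragments scaled to gene length and library depth, and the deposited tables scale it differently. In the cyclosporine A table FPKM is relative to all fragments assigned to genes, 30468775 to 34308899 per library, and mitochondrial genes held 49.7% to 68.6% of them with saline vehicle and 80.2% to 90.8% with cyclosporine A. Nuclear genes were left with 10283979 to 17256748 fragments per saline library and 2905839 to 6549282 per cyclosporine A library. In the tacrolimus table, with 31670202 to 39358485 fragments per library, the mitochondrial share was 10.5% to 13.7% with vehicle and 10.8% to 15.9% with drug, and FPKM follows size factors that equalise the median gene ratio. Cyclosporine A values are therefore given both as deposited and rescaled with such size factors (rescaled FPKM). Over all tested genes the log2 fold change had a median of −0.89 as deposited and −0.0003 rescaled, and the direction of every member changes between the scalings. The part of the mitochondrial share in the deposited differences was not tested beyond this rescaling.

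The positions below are those deposited, on rn6 per the submitters' processing notes. Aqp2 lies on the plus strand of chromosome 7 (141237768 to 141245165), Aqp3 on the minus strand of chromosome 5 (57423734 to 57429245) and Aqp4 on the minus strand of chromosome 18 (6765945 to 6782996). Avpr2 is X-linked (156889410 to 156891213, minus strand). Scnn1g (191704311 to 191738268) and Scnn1b (191829555 to 191884298) are neighbours on the plus strand of chromosome 1, and Scnn1a (157836912 to 157860049, plus strand) and Fxyd4 (149984206 to 149988295, minus strand) are both on chromosome 4. Gata3 is on the plus strand of chromosome 17 (72429618 to 72450681) and Elf5 on the plus strand of chromosome 3 (93351619 to 93371656). Scnn1b overlaps Cog7 (191857556 to 191948977), which is read from the opposite strand. The strand setting of the counting is not given in the sources used here, so fragments of Scnn1b and Cog7 cannot be told apart in the overlap. No other member overlaps a listed gene.

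RefSeq promoter windows are shown for Aqp2, Aqp3 and Fxyd4, the members that varied most closely together in the cyclosporine A table and whose within-library ratios are described further on. Of the 10 members, 8 were in the RefSeq table of promoters (build GRCr8). Each sequence is read 5′ to 3′ on the gene's strand and ends at the base before the start. The Aqp2 and Aqp3 windows are 250 bases long, and that of Fxyd4 is limited to the 177 bases before the gene's outermost annotated start. Capitals mark matches, on either strand, to the cyclic AMP response element core TGACG, the NFAT core TGGAAA, the GATA sites AGATAA or TGATAA and the steroid receptor half-site TGTTCT.
Aqp2, chr7:132590036-132590285, plus strand: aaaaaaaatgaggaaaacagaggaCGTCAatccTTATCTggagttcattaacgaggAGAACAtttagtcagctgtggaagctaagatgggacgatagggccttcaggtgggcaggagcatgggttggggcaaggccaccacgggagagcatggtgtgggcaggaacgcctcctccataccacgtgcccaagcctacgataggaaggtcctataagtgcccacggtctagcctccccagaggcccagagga
Aqp3, chr5:61040684-61040933, minus strand: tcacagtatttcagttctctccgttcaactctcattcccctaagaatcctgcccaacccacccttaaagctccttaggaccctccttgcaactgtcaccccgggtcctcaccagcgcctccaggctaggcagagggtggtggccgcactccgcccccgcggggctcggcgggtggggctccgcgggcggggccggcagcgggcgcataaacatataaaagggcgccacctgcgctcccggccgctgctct
Fxyd4, chr4:152786119-152786295, minus strand: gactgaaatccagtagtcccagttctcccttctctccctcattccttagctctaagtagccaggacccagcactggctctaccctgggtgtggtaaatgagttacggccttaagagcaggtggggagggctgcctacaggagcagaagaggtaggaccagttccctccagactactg
In the Aqp2 window the cyclic AMP core begins 226 bases before the start, the GATA site 217 bases and the steroid half-site 194 bases before it, all 3 read on the reverse strand, and the matches do not overlap. Of 33469 RefSeq windows of 250 bases, 18.22% hold the cyclic AMP core, 16.87% a GATA site, 17.52% the steroid half-site and 19.7% TGGAAA. The Aqp3 and Fxyd4 windows hold none of these letters. A match is a description of the letters and not a measured binding site.

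The members spanned a wide range of levels. In DMSO/PEG vehicle kidneys, Aqp2 stood highest at 130.5 ± 19.4 FPKM (SD, n = 6), followed by Aqp3 at 98.7 ± 14.2 and Scnn1a at 31.5 ± 3.57. Fxyd4 (25.5 ± 4.89), Avpr2 (21.0 ± 2.76), Scnn1b (21.0 ± 2.56) and Scnn1g (17.7 ± 1.18) came next, and Aqp4 (8.13 ± 1.16), Gata3 (7.98 ± 0.881) and Elf5 (2.50 ± 0.779) were lowest. Aqp2 exceeded Aqp3, and Aqp3 exceeded Scnn1a, in 6 of 6 libraries, whereas Avpr2 exceeded Scnn1b in 3 of 6 and Aqp4 exceeded Gata3 in 3 of 6, so those neighbours did not differ beyond their spread. In saline vehicle kidneys the deposited order also began with Aqp2 (119 ± 42.3 FPKM, SD, n = 4) and Aqp3 (44.3 ± 13.8), and Fxyd4 (39.2 ± 13.7) came 3rd, each above the next in 4 of 4 libraries. Scnn1a stood 8th of the 10 in the saline group, at 4.97 ± 0.874 FPKM, and 3rd of the 10 in the DMSO/PEG group. The tables were normalized separately, so only the order is set side by side, and table and vehicle cannot be told apart as sources of this shift.

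**Figure D1:**
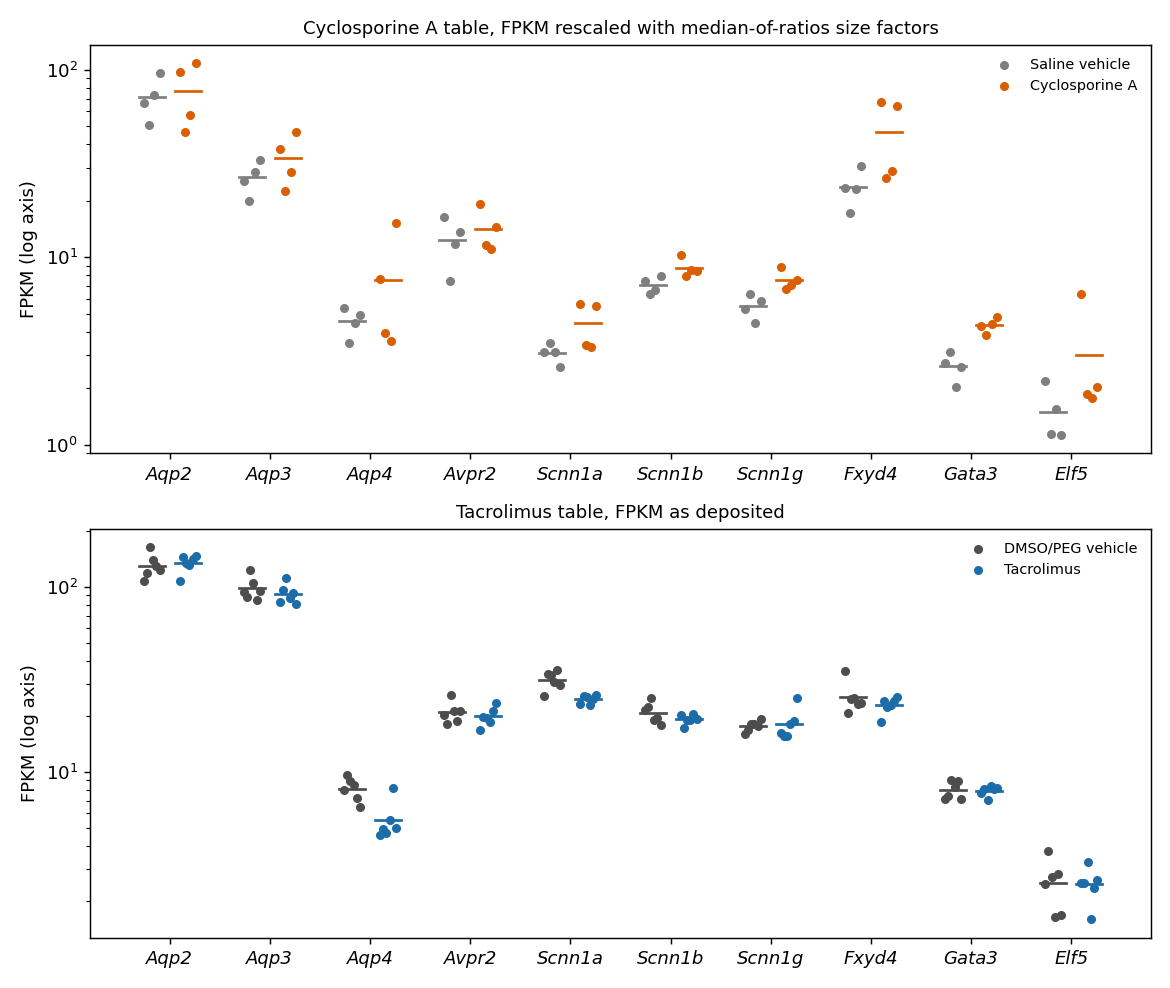
FPKM on a log axis for the 10 members, with rescaled FPKM of the cyclosporine A table above and deposited FPKM of the tacrolimus table below; points are libraries (4 per group above, 6 below) and lines are group means. Gata3, Scnn1b and Scnn1g are the members whose cyclosporine A and saline points do not overlap in the upper panel.

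Whether cyclosporine A altered the members depended on the scaling. On deposited FPKM, 7 of the 10 fell at an adjusted p under 0.05 (limma, adjusted over all genes tested) and none rose, but 80.9% of all 13455 tested genes were called lower in the same comparison. The members' median log2 fold change was −0.73, against −0.89 for all tested genes. On rescaled FPKM none of the 10 passed, beside 0.609% of all genes. There, 4 members had an unadjusted p under 0.05, all with higher means in the drug group, beside 7.29% of all genes. The rescaled estimate was above 0 for 10 of the 10 members and for 49.9% of all genes, with a median of 0.40 for the members. The sign was not stable for Aqp2, which turned to −0.12 with voom weights on recovered fragments and went below 0 without saline replicate 2 (−0.092) or drug replicates 1 (−0.079) or 4 (−0.13), nor for Avpr2, at −0.0061 without saline replicate 2.

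Aqp2, the vasopressin-regulated water channel, read 134, 64.3, 113 and 165 FPKM in the saline libraries and 61.0, 38.5, 42.7 and 46.4 in the cyclosporine A libraries as deposited. The drug libraries were all below the saline libraries (log2 fold change −1.26 ± 0.32 SE, limma adjusted p = 0.00217). Non-overlap in that direction was shared by 67.9% of all tested genes. Rescaled, the saline libraries read 66.5, 50.8, 73.7 and 96.0 and the drug libraries 97.4, 46.7, 57.2 and 108. The rescaled groups overlapped, with 2 drug libraries above and 1 below the saline range (0.059 ± 0.28 SE, 95% interval −0.57 to 0.69, adjusted p = 0.945). The high drug libraries, replicates 1 and 4, were those with the highest mitochondrial shares of the series, 85.6% and 90.8%, and the part of that share in their rescaled values was not tested.

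Aqp3, a basolateral water channel, followed the same libraries. Its rescaled values were 25.4, 19.9, 28.6 and 33.1 FPKM with saline and 37.7, 22.6, 28.4 and 46.6 with cyclosporine A, again highest in drug replicates 1 and 4. The rescaled difference was 0.30 ± 0.22 (adjusted p = 0.553), and ran from 0.13 to 0.47 with a library left out. The deposited difference was −0.99 ± 0.30 (adjusted p = 0.00575). Aqp4, the other basolateral channel, read 5.39, 3.49, 4.43 and 4.94 with saline and 7.61, 3.95, 3.55 and 15.2 with cyclosporine A after rescaling. Drug replicates 1 and 4 lay above the saline range and replicates 2 and 3 inside it (0.44 ± 0.36, adjusted p = 0.590; deposited −0.70 ± 0.30, adjusted p = 0.0369). The rescaled difference ran from 0.069 to 0.68 with a library left out, and was lowest without drug replicate 4. The deposited call of Aqp4 was lost without any of saline replicates 1, 3 or 4 or drug replicates 2 or 3, at adjusted p of 0.0522 to 0.126, and with no filter on low values (0.0819). Avpr2, the receptor upstream of Aqp2, spanned 7.46 to 16.3 FPKM with saline and 11.03 to 19.2 with cyclosporine A on the rescaled scale, and 9.43 to 32.9 against 6.21 to 12.02 as deposited. Its groups overlapped on both scales, with differences of 0.20 ± 0.23 rescaled (adjusted p = 0.734) and −1.04 ± 0.33 deposited (adjusted p = 0.00858).

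The ENaC subunits were higher on the rescaled scale without passing the adjusted threshold. Scnn1g, the gamma subunit, read 5.30, 6.36, 4.46 and 5.86 FPKM with saline and 8.85, 6.75, 7.07 and 7.56 with cyclosporine A, so that all 4 drug libraries lay above the saline range (0.40 ± 0.13, unadjusted p = 0.0129, adjusted p = 0.180). Scnn1b, the beta subunit, read 7.42, 6.36, 6.68 and 7.93 against 10.3, 7.94, 8.50 and 8.43, again with no overlap although drug replicate 2 and saline replicate 4 were close (0.27 ± 0.12, adjusted p = 0.293). Scnn1a, the alpha subunit, read 3.11, 3.48, 3.12 and 2.59 against 5.60, 3.40, 3.30 and 5.46, with 2 drug libraries inside the saline range (0.39 ± 0.18, adjusted p = 0.308). Groups that do not overlap, drug higher, made up 4.81% of all tested genes. On deposited FPKM all 3 subunits fell, with log2 fold changes of −0.66 for Scnn1a, −0.91 for Scnn1b and −0.75 for Scnn1g (adjusted p = 0.0166, 0.0065 and 0.0138). The deposited call of Scnn1a was lost without saline replicate 1 (adjusted p = 0.0502) and that of Scnn1g without saline replicate 4 (adjusted p = 0.0523).

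Fxyd4, a small membrane protein of the sodium pump complex, had the highest rescaled estimate of the 10 members on the log2(FPKM + 1) scale, while with voom Elf5 (0.75) and Gata3 (0.70) stood above it (0.68). It read 23.5, 17.1, 23.1 and 30.6 FPKM with saline and 67.0, 26.4, 28.8 and 64.0 with cyclosporine A. Drug replicates 1 and 4 lay above the saline range, and replicates 2 and 3 inside it (0.86 ± 0.31, unadjusted p = 0.0216, adjusted p = 0.221). As deposited it read 47.3, 21.6, 35.4 and 52.5 against 41.9, 21.8, 21.5 and 27.4 and was not called (−0.44 ± 0.33, adjusted p = 0.211).

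Gata3, a transcription factor of the collecting duct and also of urothelium, had the smallest p of the members on the rescaled scale. It read 2.74, 3.13, 2.02 and 2.60 FPKM with saline and 4.27, 3.85, 4.41 and 4.78 with cyclosporine A. All 4 drug libraries were above the saline range (0.56 ± 0.13, unadjusted p = 0.00192, adjusted p = 0.0884). With voom weights on recovered fragments the adjusted p was 0.0472, at a log2 fold change of 0.70, and over the other alternatives it ran from 0.0724 to 0.214. As deposited, Gata3 was not called (−0.46 ± 0.24, adjusted p = 0.0858). Elf5 was the lowest member, resting on 21 to 115 fragments per library. It read 2.18, 1.14, 1.54 and 1.13 against 6.40, 1.87, 1.78 and 2.03 rescaled FPKM, with drug replicate 1 far above the rest. The difference of 0.57 ± 0.31 (adjusted p = 0.399) was 0.23 without that library.

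Levels of other cells' markers differed between these libraries too. The summed rescaled FPKM of 5 thick ascending limb markers was 337 to 598 with saline and 150.3 to 271.6 with cyclosporine A, and that of 5 distal convoluted tubule markers was 52.8 to 77.1 and 24.7 to 33.9, with no overlap in either. Most of each sum with saline came from 1 gene, and both of these genes fell: Umod went from 323 ± 99.8 to 125.5 ± 37.7 (adjusted p = 0.0491) and Calb1 from 54.9 ± 13.6 to 14.95 ± 6.25 (adjusted p = 0.0252). No other marker of those lists was called, but Slc12a1 went from 60.0 ± 9.75 to 30.9 ± 6.57 with no overlap (adjusted p = 0.0512), and 3 of 5 thick ascending limb markers were lower at an unadjusted p under 0.05, as were 8.92% of all genes. The median log2 fold change was −0.44 over the thick ascending limb list and 0.087, with 2 of 4 tested above 0, over the distal convoluted tubule list. Over 8 intercalated cell markers the sums were 153.9 to 277.4 and 193.8 to 519.2. That list, of the other collecting duct cell type, had a median of 0.29, with 7 of 8 above 0 and no call. Over 6 proximal tubule markers the sums were 175.8 to 278.4 and 115.7 to 329, and over 7 inner medullary markers 345 to 496 and 186 to 337. Slc5a2 was the only called proximal tubule marker, higher at 0.278 ± 0.168 and 1.45 ± 0.424 (adjusted p = 0.0385), while the median of its list was −0.32. Slc5a2 levels were very low, at 0.108 to 0.495 FPKM with saline and 0.843 to 1.84 with cyclosporine A. The inner medullary sum was mostly Aqp1, which the proximal tubule also makes (369 ± 56.1 and 232 ± 72.4, adjusted p = 0.167), and that list had no call, a median of 0.0018 and 4 of 7 above 0. Urothelial markers summed to 3.84 to 14.8 and 10.8 to 20.3, with 1 of 5 tested higher at an adjusted p under 0.05 (0.609% of all genes called) and 4 of 5 at an unadjusted p under 0.05 (7.29% of all genes higher). The called marker was Upk1a, at 1.28 ± 0.533 and 5.42 ± 0.843 (adjusted p = 0.0197). Upk2, Upk3b and Krt5 were at 0 in some libraries. Endothelial markers summed to 14.3 to 31.5 and 9.78 to 19.5. Among them Plvap went from 14.2 ± 6.68 to 2.64 ± 1.19 with no overlap (−1.96 ± 0.41, adjusted p = 0.0677), while Cdh5, Kdr and Emcn overlapped. Adipocyte markers summed to 14.4 to 52.1 and 25.0 to 42.6, with Ucp1 and Lep at 0 in some libraries. The sum over the principal cell members was 119 to 198 with saline and 135 to 277 with cyclosporine A. The part of these other cells in the members' differences was not tested.

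Ratios between members within a library do not depend on the scaling. Of the 45 pairs of members, 2 did not overlap between saline and cyclosporine A, and both involved Fxyd4. The pairs were picked after their values were seen. Over all genes, the share not overlapping ran from 2.01% with Aqp2 as the denominator to 47.0% with Gata3. The ratio of Fxyd4 to Aqp2 was 0.353, 0.336, 0.314 and 0.319 in the saline libraries and 0.688, 0.566, 0.503 and 0.591 in the drug libraries. Each drug library lay above each saline library, by 0.82 on the log2 scale on average, and the difference stayed between 0.74 and 0.89 when any library was left out. Of 12296 genes with a value in every library, 1.48% likewise had a higher ratio to Aqp2 in every drug library. With Fxyd4 as the denominator the same pair was less rare, since 14.8% of genes, Aqp2 and Aqp3 among them, had a lower ratio to Fxyd4 in every drug library. The ratio of Aqp3 to Fxyd4 was 1.08 to 1.24 with saline and 0.564 to 0.989 with cyclosporine A (−0.57, and −0.69 to −0.42 with a library left out). Aqp3 against Aqp2 overlapped, at 0.345 to 0.392 and 0.388 to 0.497, as did Scnn1a against Scnn1b (0.327 to 0.547 and 0.389 to 0.648).

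**Figure D2:**
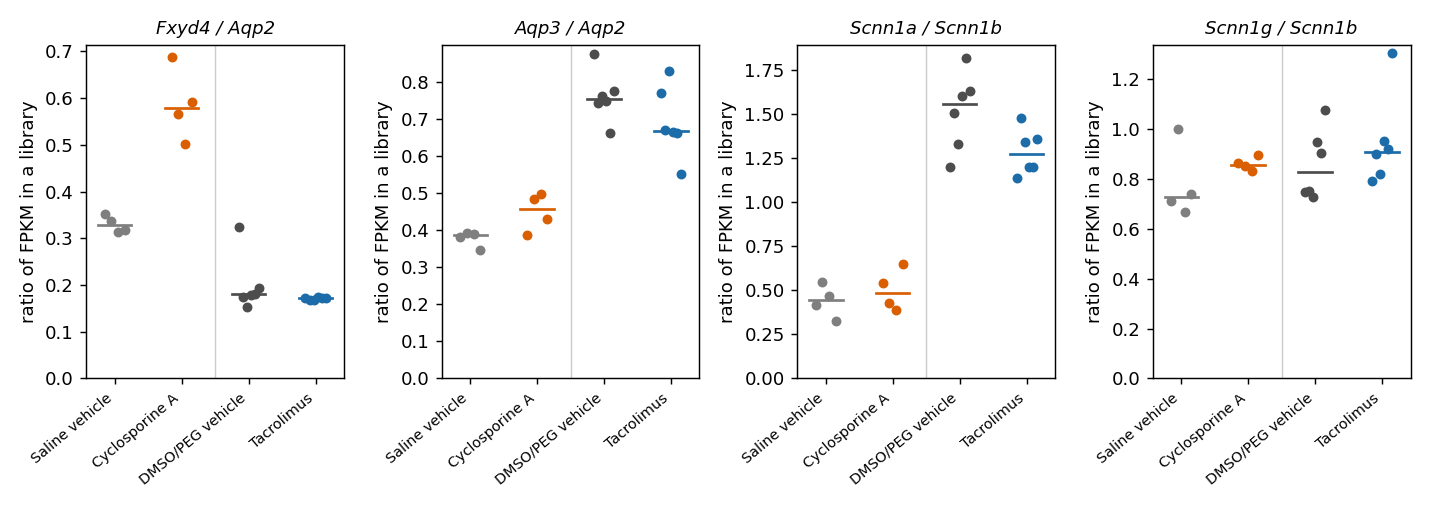
Ratios of FPKM between members of the same library (vertical axes, linear and starting at 0) in the 4 groups; points are libraries and lines are group medians. The Fxyd4 to Aqp2 ratio is 0.314 to 0.353 with saline and 0.503 to 0.688 with cyclosporine A, and the other 3 ratios overlap between each drug and its vehicle.

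With tacrolimus, the lowest estimates among the members were those of Aqp4, a basolateral water channel, and Scnn1a, the alpha subunit of ENaC. None of the 10 passed the adjusted threshold in either direction, beside 0.303% of all 15493 tested genes. At an unadjusted p under 0.05, 2 members were lower (Scnn1a and Aqp4), beside 4.87% of all genes lower at that level, and none was higher. The median log2 fold change of the members was −0.082.

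Scnn1a ran from 25.8 through a median of 32.0 to 35.7 FPKM with DMSO/PEG vehicle and from 22.9 through 25.1 to 26.1 with tacrolimus. Vehicle replicate 1, at the low end, was the library that made the groups overlap, and 5 of the 6 drug libraries lay below the vehicle range (−0.33 ± 0.072, 95% interval −0.49 to −0.18, unadjusted p = 5.05e-04, adjusted p = 0.106). Without that replicate Scnn1a passed (−0.38, adjusted p = 0.0170), and with voom weights on recovered fragments it passed by a small margin (−0.32, adjusted p = 0.0490). Over its other alternatives the adjusted p ran from 0.0689 to 0.222. ENaC alpha is also made in the late distal convoluted tubule. The 5 markers listed for the whole distal convoluted tubule summed to 275.6 to 352.3 FPKM with vehicle and 47.8 to 75.9 with tacrolimus. Most of the vehicle sum came from Calb1, at 198 ± 27.9 with vehicle and 13.1 ± 0.921 with tacrolimus. All 4 tested markers of the distal convoluted tubule list were called lower, beside 0.303% of all genes called, while Pvalb was at 0 in some libraries. Of 6 adipocyte markers, 2 were called lower, beside the same 0.303%. At an unadjusted p under 0.05, 5 of the 6 were lower, beside 4.87% of all genes, and none of the 6 was above 0. The adipocyte sum was 77.3 to 266.2 FPKM with vehicle and 32.6 to 131.9 with tacrolimus. No gene of the intercalated cell, thick ascending limb, proximal tubule, inner medulla, urothelium or endothelium lists was called. The part of these cells in the Scnn1a and Aqp4 differences was not tested.

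Aqp4 ran from 6.46 through 8.24 to 9.67 FPKM with vehicle and from 4.56 through 4.95 to 8.24 with tacrolimus. Drug replicate 5 held the highest drug value and lay inside the vehicle range, and the other 5 lay below it (−0.51 ± 0.13, unadjusted p = 0.00141, adjusted p = 0.148). Without replicate 5 the difference was −0.62 and passed at an adjusted p of 0.0113, and over the other alternatives the adjusted p ran from 0.120 to 0.318. The other water channels showed no such gap. Aqp2 ran from 107.6 through 126.1 to 163 with vehicle and from 108 through 137.6 to 146 with tacrolimus (0.046 ± 0.099, 95% interval −0.17 to 0.26, adjusted p = 0.947). Aqp3 ran from 85.5 through 94.5 to 124 and from 80.8 through 90.3 to 111 (−0.096 ± 0.097, adjusted p = 0.873).

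The remaining members had intervals around 0. Avpr2 differed by −0.068 ± 0.090, Scnn1b by −0.11 ± 0.074, Scnn1g by 0.024 ± 0.10 and Fxyd4 by −0.13 ± 0.11, at adjusted p of 0.759 to 0.977. Gata3 ran from 7.11 through 7.84 to 9.05 FPKM with vehicle and from 7.07 through 8.10 to 8.42 with tacrolimus (−0.0031 ± 0.071, 95% interval −0.16 to 0.15, adjusted p = 0.995), and Elf5 from 1.64 through 2.59 to 3.73 and from 1.60 through 2.52 to 3.28 (0.0038 ± 0.15). Among the within-library ratios, 1 of the 45 pairs did not overlap. Over all genes, the share not overlapping ran from 0.208% with Elf5 as the denominator to 12.9% with Scnn1a. Scnn1a over Gata3 was 3.62 to 4.56 with vehicle and 2.72 to 3.61 with tacrolimus, a log2 difference of −0.34 that stayed between −0.38 and −0.30 with a library left out. A ratio to Gata3 that was lower in every drug library was found for 0.364% of 15390 genes, and a ratio to Scnn1a that was higher in every drug library, which is the same pair turned round, for 12.8%. The ratio of Fxyd4 to Aqp2, which was higher with cyclosporine A, was 0.167 to 0.175 in the 6 tacrolimus libraries and 0.152 to 0.193 in 5 vehicle libraries, with vehicle replicate 1 at 0.325.

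**Figure D3:**
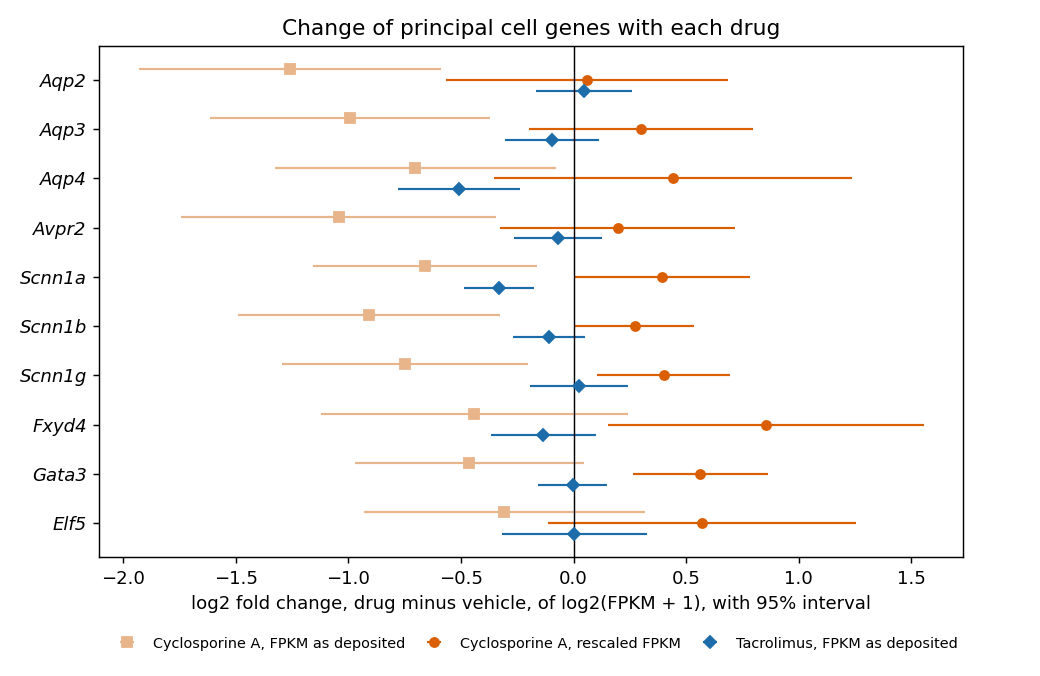
Log2 fold changes of the 10 members, drug minus vehicle, on the log2(FPKM + 1) scale (horizontal axis) with 95% intervals from limma; squares are cyclosporine A as deposited, circles cyclosporine A rescaled and diamonds tacrolimus. Deposited cyclosporine A estimates lie below 0 for every member and rescaled ones above 0, and tacrolimus intervals exclude 0 for Scnn1a and Aqp4.

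The changes with the drugs were then compared as the rescaled cyclosporine A change minus the tacrolimus change. No member passed, beside 1.61% of 13392 genes tested in both tables, and none did with voom weights on recovered fragments. The difference was above 0 for 10 of the 10 members and for 50.7% of all genes, and 6 members had an unadjusted p under 0.05, all higher, beside 7.37% of all genes. The smallest p were those of Gata3 (0.57 ± 0.15, adjusted p = 0.0731) and Scnn1a (0.72 ± 0.19, adjusted p = 0.0743). Fxyd4 differed by 0.99 ± 0.33 (95% interval 0.27 to 1.71, adjusted p = 0.165) and Aqp4 by 0.95 ± 0.38 (adjusted p = 0.241). These 2 ran from 0.78 to 1.21 and from 0.58 to 1.19 with a library left out. Aqp2 differed by 0.013 ± 0.30, with an interval of −0.63 to 0.66 that leaves room for changes in either direction, and its sign turned with voom (−0.18). With a library left out it ran from −0.18 to 0.22. With deposited cyclosporine A values the sign of every member turned, and 5 (Aqp2, Aqp3, Avpr2, Scnn1b and Scnn1g) were called lower, beside 74.9% of all genes.

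Genes that regulate the water channels were described from a list of 18 symbols for vasopressin signalling and Aqp2 trafficking. None of 17 tested passed with cyclosporine A on the rescaled scale, and 16 of the 17 were called lower as deposited, where 80.9% of all genes were. The deposited counts of the lists that follow stand beside that same share. Prkaca, a catalytic subunit of protein kinase A, had the smallest p among those with lower means (8.63 ± 0.604 FPKM with saline, 6.56 ± 1.04 with cyclosporine A, adjusted p = 0.202). Adcy6, an adenylyl cyclase, had the smallest among those with higher means (4.34 ± 0.453 and 5.15 ± 0.452, adjusted p = 0.431), and did so too for the difference between the drugs (0.20 ± 0.14). As deposited, Prkar2a, a regulatory subunit of protein kinase A, was lowest in p (10.2 ± 1.32 to 2.87 ± 0.613, adjusted p = 0.000459). With tacrolimus 1 of 19 fell and none rose, where 0.303% of all tested genes were called. That gene was Ptger4, the prostaglandin E2 receptor EP4, which raises cyclic AMP, and it ran from 4.50 to 6.31 FPKM with vehicle and from 3.10 to 4.34 with tacrolimus. The groups did not overlap (−0.48 ± 0.087, adjusted p = 0.0379), as for 0.671% of all genes lower with the drug. Adcy3, another adenylyl cyclase, had the smallest p among higher means (1.73 ± 0.238 and 2.01 ± 0.193, adjusted p = 0.635).

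In the list of 15 genes for the aldosterone response and ENaC regulation, none passed with cyclosporine A on the rescaled scale, and 13 were called lower as deposited. Sgk1, the aldosterone-induced kinase that keeps ENaC at the membrane, was at 9.47 ± 0.641 rescaled FPKM with saline and 17.7 ± 7.33 with cyclosporine A (0.75 ± 0.25, adjusted p = 0.181). Furin, a protease that cleaves ENaC, was at 11.6 ± 2.75 and 8.23 ± 0.602 (−0.42 ± 0.16, adjusted p = 0.227). With tacrolimus 1 of the 15 fell and none rose, beside the same 0.303% of all genes. Wnk1, a kinase with a short form abundant in the distal convoluted tubule, went from 34.2 ± 2.80 to 19.1 ± 0.98 FPKM (−0.81 ± 0.058, adjusted p = 1.69e-05), beside the fall of that segment's marker list given above. Its difference between the drugs was 0.82 ± 0.14 (adjusted p = 0.0160). Hsd11b2, the enzyme that keeps glucocorticoids off the mineralocorticoid receptor, had the smallest p among higher means with tacrolimus (138.9 ± 20.4 and 158.5 ± 14.9, adjusted p = 0.606). Prss8, a protease that activates ENaC, had the smallest among negative differences between the drugs (−0.72 ± 0.24, adjusted p = 0.151).

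The potassium channels and sodium pump subunits of principal cells, 6 genes, held no call with either drug on rescaled or tacrolimus values, and all 6 were called lower as deposited with cyclosporine A. Kcnj1, the secretory potassium channel ROMK, was at 110.3 ± 10.8 FPKM with DMSO/PEG vehicle and 96.9 ± 3.70 with tacrolimus (−0.18 ± 0.064, adjusted p = 0.413). Kcnj10 and Kcnj16, which form a basolateral potassium channel, differed between the drugs by 0.22 ± 0.22 and −0.47 ± 0.19 (adjusted p = 0.693 and 0.242), and Kcnj16 fell from 39.8 ± 10.5 to 11.8 ± 5.11 as deposited with cyclosporine A (adjusted p = 0.00063). Of 12 further collecting duct identity genes none passed on those values either, and 10 were called lower as deposited. On the rescaled scale 8 of the 12 were above 0, with a median of 0.15. Gata2, a relative of Gata3, was at 2.03 ± 0.514 and 3.64 ± 0.947 rescaled FPKM (0.61 ± 0.18, adjusted p = 0.145) and, with tacrolimus, at 5.79 ± 0.518 and 7.07 ± 0.532 (0.25 ± 0.067, adjusted p = 0.197). Krt19, a keratin of duct epithelium, fell from 14.2 ± 1.83 to 4.08 ± 0.934 as deposited (adjusted p = 0.000459). The homeobox genes had the smallest p among lower means, Hoxb7 with cyclosporine A on the rescaled scale (21.3 ± 1.72 and 18.1 ± 2.17, adjusted p = 0.345) and Hoxd8 with tacrolimus (41.6 ± 5.201 and 38.4 ± 2.53, adjusted p = 0.770). Between the drugs they differed by −0.21 ± 0.13 and 0.33 ± 0.17 (adjusted p = 0.464 and 0.364).

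Of 5 tested kidney aquaporins outside the member set, 1 fell with cyclosporine A on the rescaled scale and none rose, where 0.609% of all tested genes were called. Their median log2 fold change was −0.68, beside −0.0003 for all tested genes and 0.40 for the members, and the lists were not tested against each other. Aqp7, the glycerol and water channel of the proximal straight tubule, went from 32.3 ± 0.761 to 17.5 ± 3.16 rescaled FPKM (−0.86 ± 0.12, adjusted p = 0.0252), with ranges of 31.4 to 33.2 and 14.4 to 21.7. Its difference between the drugs was −0.81 ± 0.14 (adjusted p = 0.0153). None of 6 passed with tacrolimus, where Aqp6, an intercalated cell channel, had the smallest p among higher means (75.0 ± 6.88 and 81.2 ± 6.28, adjusted p = 0.711) and Aqp8 among lower ones (0.221 ± 0.0813 and 0.142 ± 0.101, adjusted p = 0.742).

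**Figure D4:**
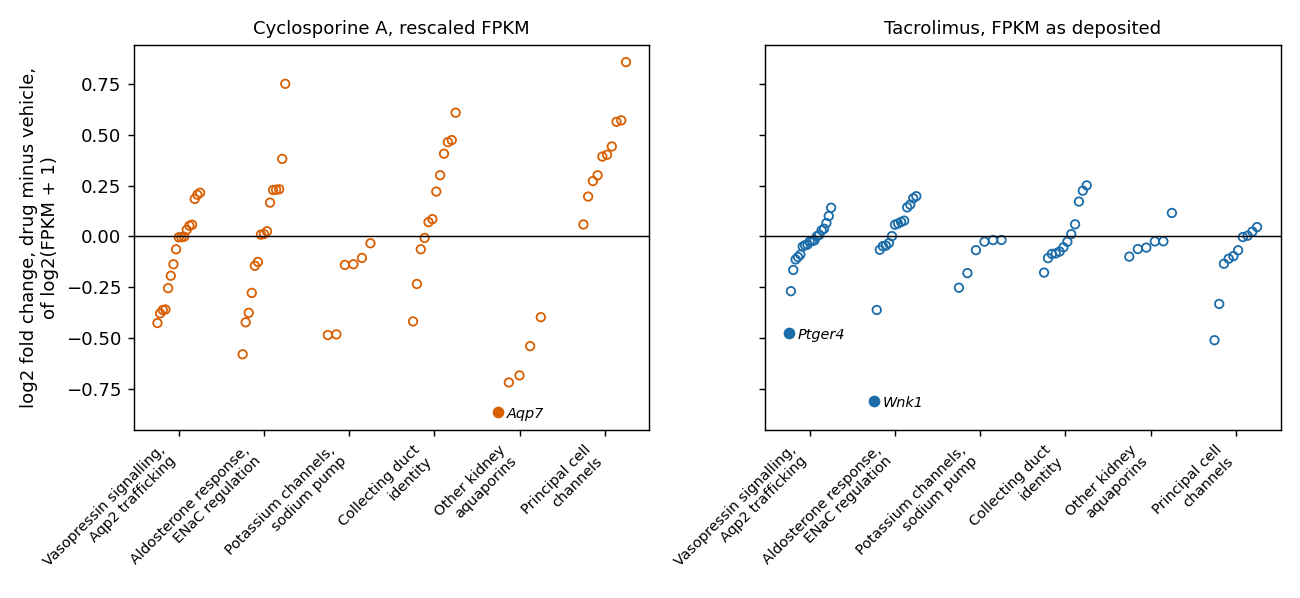
Log2 fold change of each tested gene (vertical axis, on the log2(FPKM + 1) scale) in 5 lists of related genes and in the 10 members, sorted within each list, for cyclosporine A on rescaled FPKM (left) and tacrolimus (right). Filled points passed an adjusted p under 0.05: Aqp7 on the left, and Ptger4 and Wnk1 on the right.

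The members varied together to different degrees once each group's mean was subtracted. In the cyclosporine A table Aqp2 followed Aqp3 at a Pearson r of 0.98 and Fxyd4 at 0.97 over 8 libraries, ranks 4 and 9 of all tested genes, and the 95th percentile of all genes was 0.75. The genes most like Aqp2 there were Irgm (0.997), Klhl13 (0.990), Tmem50b (0.988), Aqp3 and Slc6a17 (0.98), of which Irgm and Klhl13 averaged 0.711 and 0.584 FPKM. In the tacrolimus table, over 12 libraries, the most alike were Trpv4 (0.906), Cyfip2 (0.901), Rfx1 (0.887), Exosc6 (0.882) and Angptl6 (0.880), with a 95th percentile of 0.61. Avpr2 was the closest member (0.80), whereas Aqp3 stood at 0.57 and Fxyd4 at 0.080. Over the 45 pairs of members, the median r was 0.51 (−0.19 to 0.98) with cyclosporine A and its vehicle, against 0.14 (−0.49 to 0.80) with tacrolimus and its vehicle. These are descriptions without a test. The points of a table share their libraries, depth and scaling, and the part of these in the correlations was not tested.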

How the data were processed

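The authors deposited FPKM values per gene in a table for each drug with its vehicle; alignment with HISAT2 to rn6 is named per the submitters' processing notes, and the counting program, its strand setting and the annotation release are not given in the sources used here. Per the labels' protocols, total RNA was taken from the entire kidney. Fragments behind each FPKM were recovered as whole numbers (tolerance 0.01) with the listed gene length for 100% of values above 0 in the tacrolimus table and 74.6% in the cyclosporine A table, where 4441 of 18892 detected genes, among them Aqp4 and Avpr2, needed a shorter length to come out whole. Rescaled FPKM used median-of-ratios size factors of those fragments. Values were tested as log2(FPKM + 1) with limma 3.58.1 in R 4.3.3, fitting group alone, moderating variances with a mean trend, and adjusting by Benjamini-Hochberg over all tested genes. Fold changes on this scale understate the change of low genes. A gene was tested if it reached 10 fragments at the median library size in at least 4 (cyclosporine A table) or 6 (tacrolimus table) libraries, and 15 in total. The difference between drugs combined the standard errors of both fits, with Satterthwaite degrees of freedom. The code was tested on simulated data. Libraries of a group differed beyond sampling noise (chi-square per degree of freedom 16.7 to 184). The members and lists were chosen with earlier results of these data known. Named genes were the members, the gene with the smallest p in each direction of each list in each comparison, and the 5 genes most correlated with Aqp2; genes of marker lists and the within-library ratios were named after their values were seen. Alternatives were another pseudocount, no filter, voom on recovered fragments, no trend, a replicate block, other scalings and leaving out each library. Gnas and Slc14a2 carry 2 identifiers each, and Slc5a3 and Pecam1 were not matched. A gene of the list of potassium channels and sodium pump subunits that the naming rule picks is not reported here.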

Additional observations from a re-analysis of the deposited data

Results flagged for a closer look

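In 6 of 60 groups of values, 1 library lay far from the others of its group by Dixon's criterion. Chance alone gives about 1 in 20 for independent groups, but these groups share libraries, and the cyclosporine A libraries enter on both scalings. The count therefore cannot be read against that rate. In the cyclosporine A group as deposited, replicate 4 was lowest for Scnn1b at 3.61 FPKM, with the next at 6.35, and for Scnn1g at 3.239 FPKM, with the next at 5.28. That library also had the highest mitochondrial share (90.8%), and on rescaled FPKM neither value stood apart. Elf5 in cyclosporine A replicate 1 was highest at 6.397 rescaled FPKM, with the next at 2.03. In the tacrolimus table, Fxyd4 was highest in DMSO/PEG vehicle replicate 1 at 34.96 FPKM, with the next at 25.1. Aqp4 in tacrolimus replicate 5 was highest at 8.242 FPKM, with the next at 5.48. Scnn1g in tacrolimus replicate 6 was highest at 25.11 FPKM, with the next at 18.9. The cause of these far values was not tested.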

How the results depend on the processing

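The number of members called with cyclosporine A on deposited FPKM, 7 in the main analysis, was 1 (Gata3, higher) with voom on recovered fragments at median-of-ratios size factors, which changed the scaling and the model together, 0 with upper-quartile scaling, 0 with scaling to nuclear genes, and 5 to 7 with a library left out. On rescaled FPKM it was 1 with voom (Gata3) in place of 0, and 0 with any library left out. With tacrolimus it was 1 with voom (Scnn1a) in place of 0, and 0 to 1 with a library left out (Scnn1a without DMSO/PEG replicate 1, Aqp4 without tacrolimus replicate 5). For the difference between drugs it was 5, all lower, with deposited cyclosporine A values, and 0 with any library left out. The share of all genes called with voom or with a library left out is not given here. The members' calls under those settings therefore cannot be set beside it. The deposited log2 fold changes turned positive once the libraries were rescaled. Under upper-quartile scaling they were 0.084 for Aqp2, 0.32 for Aqp3, 0.46 for Aqp4, 0.22 for Avpr2, 0.41 for Scnn1a, 0.29 for Scnn1b, 0.42 for Scnn1g, 0.88 for Fxyd4, 0.58 for Gata3 and 0.59 for Elf5. Scaled to nuclear genes they were 0.15, 0.39, 0.52, 0.28, 0.47, 0.36, 0.48, 0.95, 0.64 and 0.63 in the same order. With voom they were 0.15 for Aqp3, 0.21 for Aqp4, 0.093 for Avpr2, 0.43 for Scnn1a, 0.26 for Scnn1b, 0.43 for Scnn1g, 0.68 for Fxyd4, 0.70 for Gata3 and 0.75 for Elf5, while Aqp2 stayed below 0 at −0.12, so its rescaled direction also turned. With tacrolimus, voom turned Scnn1g to −0.030 and Gata3 to 0.046, and scaling to nuclear genes turned Gata3 to 8.1e-05. For the difference between drugs, voom turned Aqp2 to −0.18. With deposited cyclosporine A values the differences were −1.31 for Aqp2, −0.90 for Aqp3, −0.19 for Aqp4, −0.98 for Avpr2, −0.33 for Scnn1a, −0.80 for Scnn1b, −0.77 for Scnn1g, −0.31 for Fxyd4, −0.46 for Gata3 and −0.31 for Elf5. Leaving out a library moved estimates close to 0 across it. With cyclosporine A rescaled, Aqp2 ran from −0.13 to 0.27 and Avpr2 from −0.0061 to 0.34. With tacrolimus, Aqp2 ran from −0.0065 to 0.11, Scnn1g from −0.068 to 0.063, Gata3 from −0.031 to 0.030 and Elf5 from −0.072 to 0.096. The Aqp2 difference between drugs ran from −0.18 to 0.22. Replicate numbers of the labels did not pair the libraries: same-numbered libraries correlated at −0.15 to 0.21 for cyclosporine A and its vehicle, and at −0.15 to 0.18 for tacrolimus and its vehicle. With a replicate block, 5 members were called on deposited FPKM (Aqp4 and Scnn1a were not), and the block changed no other member's call. On deposited FPKM, Gata3 was called lower without an empirical Bayes trend (adjusted p = 0.0473), opposite to its voom call. Beyond the construction of the scalings, the cause of these changes was not tested. Elf5 rested on the fewest fragments, 21 to 115 per library, which limits its precision.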
